A study of Mus musculus with 6 samples.

Results

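The genes examined here encode the amyloid precursor protein App, enzymes that cut it, proteins that carry or sort it, and the prion protein. They are 9 mouse genes, App, Bace1, Psen2, Apoe, Clu, Bin1, Picalm, Sorl1 and Prnp, chosen by name for their place in amyloid precursor processing or in the inherited risk of Alzheimer's disease, and Prnp because its promoter drives the tau transgene of these mice. All 9 were found among the 54429 genes listed, and all 9 were among the 20409 genes with enough reads to be tested. RNA was sequenced from the prefrontal cortex (PFC) of mice aged 6 months. WT mice, of the C57BL/6 x C3H background, were injected with vehicle, DMSO in saline. P301S Tau mice (line PS19), which carry a human tau transgene with the P301S change, were injected either with vehicle or with UNC0642, an inhibitor of the histone methyltransferases EHMT1 and EHMT2. Each of the 3 groups held 2 libraries, described by the submitters as biological duplicates, and libraries sharing a replicate number came from different mice. The study used mice of both sexes.

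App is a membrane protein of neurons. Cleavage by the beta-secretase Bace1 and then by gamma-secretase, whose catalytic subunit can be Psen2, releases amyloid-beta, whereas cleavage by an alpha-secretase cuts within the amyloid-beta sequence and prevents its release. Apoe and Clu (clusterin) are lipid-carrying proteins secreted largely by astrocytes that bind amyloid-beta, while Bin1, Picalm and Sorl1 act in endocytosis and endosomal sorting, the route by which App meets its secretases. Tau, encoded by Mapt, forms the other hallmark lesion of Alzheimer's disease, and in PS19 mice its human mutant form is transcribed from the promoter of Prnp in the cells where that promoter is active, in addition to the mouse's own Mapt.

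The promoter of mouse Prnp is shown because the transgene copies its activity. The window below is the RefSeq sequence on GRCm38.p6 at chr2:131909678-131909977, read 5′ to 3′ on the plus strand, and it spans the annotated start of the gene. Capitals mark matches on either strand to the GC box GGGCGG, to CCAAT and to TATAAA, none of which overlapped another.
Prnp promoter: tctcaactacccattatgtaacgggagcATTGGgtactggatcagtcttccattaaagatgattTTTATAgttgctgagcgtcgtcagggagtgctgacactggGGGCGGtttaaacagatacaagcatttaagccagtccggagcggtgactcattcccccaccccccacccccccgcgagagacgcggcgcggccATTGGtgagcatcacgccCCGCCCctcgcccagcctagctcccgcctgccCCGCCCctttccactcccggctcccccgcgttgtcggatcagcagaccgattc
It held 3 GC boxes, 2 CCAAT matches and 1 TATAAA match, and no match to TGACGTCA. Of 32851 RefSeq mouse promoters of the same length, 35.7% held a GC box, 37.4% held CCAAT and 13.6% held TATAAA. Its GC content was 60.0%, against a median of 52.7%.

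Libraries held 17005664 to 28972176 counts, of which the 9 genes took 0.480% to 0.578%. Levels are given below as CPM, the count of a gene divided by the library size after TMM scaling and put on a common scale. Xist and Ddx3y, transcribed from the inactive X and from the Y chromosome, showed the female pattern in both Tau + vehicle libraries and in WT replicate 2, with 191 to 317 CPM of Xist, and the male pattern in both Tau + UNC0642 libraries and in the library labelled WT replicate 1, with 95.05 to 101 CPM of Ddx3y. The effect of UNC0642 in Tau mice and the difference in sex pattern cannot be told apart. The library Tau replicate 2 stood apart in 10 oligodendrocyte markers, whose summed level was 5794 CPM against 1526 to 3093 CPM in the other 5 libraries, and in 8 markers of striatal neurons, at 252.9 CPM against 97.7 to 123 CPM. The WT libraries also differed from each other, with an oligodendrocyte sum of 3093 CPM in replicate 1 and 1526 CPM, the lowest, in replicate 2. Markers of meningeal fibroblasts summed to 521.6 CPM in WT replicate 2, the highest. They summed to 329.8 CPM in the library labelled WT replicate 1 and to 290.4 to 406.4 CPM in the Tau libraries. In fits of all 6 libraries, 8 of 8 striatal and 4 of 10 oligodendrocyte markers were called higher in Tau than in WT mice, where 9.81% of all tested genes were called, and 7 of 8 and 2 of 10 were called lower in UNC0642-treated than in untreated Tau mice, where 7.69% were. Endothelial markers summed to 196 and 185 CPM in WT, 136 and 145 CPM in Tau + vehicle and 138 and 183 CPM in Tau + UNC0642, and 4 of 7 were called lower in Tau than in WT mice. Microglial markers summed to 333 to 411 CPM. With UNC0642, 8 of 10 of them lay below both untreated Tau libraries without overlap, as did 20.9% of all tested genes. Of the 10, 2 were called lower and 1 was called higher. Sums of neuron markers, at 7420 to 8154 CPM, and of astrocyte markers, at 4772 to 5447 CPM, are carried by a few abundant genes, and single markers were called. Of 10 neuron markers, 2 were called in Tau against WT mice and 2 in UNC0642-treated against untreated Tau mice. In UNC0642-treated Tau against WT mice 4 of 10 were called, where 9.47% of all tested genes were. Of 8 astrocyte markers, only Gfap was called, in Tau against WT mice (log2 fold change of 0.60). Gfap stood at 60.0 and 49.4 CPM in WT, 55.35 CPM in Tau replicate 1 and 111.6 CPM in Tau replicate 2, so these groups overlapped. None of the markers in the 8 cell type lists was at 0 in every library. The part of these markers in the results below was not tested. In bulk tissue, fewer cells of a type and less RNA per cell cannot be told apart.

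Prnp separated the libraries otherwise than their labels did. It encodes the cellular prion protein, a surface protein of neurons and glia. Prnp stood at 1652 CPM in the library labelled WT replicate 1 and at 872.9 CPM in WT replicate 2. It reached 1552 and 1470 CPM in the Tau + vehicle libraries, and 1548 and 1694 CPM in the Tau + UNC0642 libraries. WT replicate 2 was the only low library: the other 5 held 1.68 to 1.94 times its level and lay within 1.152-fold of each other, so the 2 WT libraries lay on either side of all but 1 of the Tau libraries. The gap of 0.75 on the log2 scale between WT replicate 2 and the next lowest library was the 5th largest among 10200 genes with a mean of at least 10 CPM, and 0.667% of these genes differed more between the 2 WT libraries than Prnp did. Larger gaps were those of Kdm5d (1.2), Ctgf (0.85), Egr2 (0.77) and Dusp5 (0.75), and the oligodendrocyte markers Mobp and Mal were at ranks 10 and 11. Kdm5d lies on the Y chromosome, with 0 counts in WT replicate 2 and 6 and 2 in the Tau + vehicle libraries, so its gap is at the floor.

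Mapt, the tau gene, followed in the same libraries with a smaller gap. It stood at 575.6 CPM in the library labelled WT replicate 1 and 448.7 CPM in WT replicate 2, against 612.6 and 589.1 CPM in Tau + vehicle and 570.5 and 614.0 CPM in Tau + UNC0642. WT replicate 2 was again the lowest, and the other 5 libraries held 1.27 to 1.37 times its level. The gap to the next lowest library was 0.35 on the log2 scale, at rank 50 among the genes of at least 10 CPM. Reads of the human transgene can be assigned to mouse Mapt only where the sequences match, and how many were is not known from these counts. Whether any reads of the transgene were counted as Prnp is not known from them either.

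**Figure D1:**
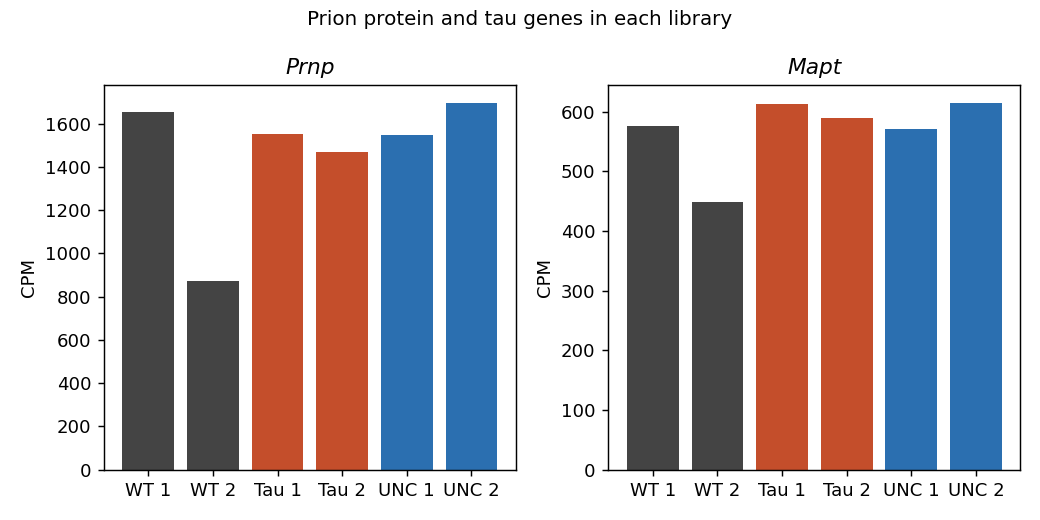
Bars give Prnp and Mapt in each of the 6 libraries, in CPM, coloured by group. The library labelled WT replicate 1 sits with the 4 Tau libraries for both genes (1652 CPM of Prnp, 575.6 CPM of Mapt), and WT replicate 2 lies below them (872.9 and 448.7 CPM).

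With both WT libraries, the log2 fold change of Prnp in Tau against WT mice was 0.26 with a 95% interval from -0.22 to 0.74 (adjusted p = 0.657, quasi-likelihood test of edgeR, adjusted over all tested genes by Benjamini-Hochberg), and in UNC0642-treated Tau against WT mice it was 0.36 (adjusted p = 0.539). Without the library labelled WT replicate 1, the same fit gave 0.79 and 0.89. Without WT replicate 2, it gave -0.13 and -0.027. The value of Prnp in both comparisons therefore rested on which WT library was kept. The library labelled WT replicate 1 was singled out by its own Prnp level, so a larger value without it was fixed in advance. Fits with 1 WT library take its spread from the other groups, so no p is given for Prnp there. Of the 9 genes, Clu and Picalm alone had both WT libraries below every Tau library, treated or untreated. Picalm stood at 186.9 and 186.2 CPM in WT and at 195.5 to 242.5 CPM in the Tau libraries. In the library labelled WT replicate 1, Prnp and Mapt were at the level of the Tau libraries, and on these genes its genotype label is in doubt. Whether that label is wrong or WT replicate 2 is unusual was not tested, and either bears on every value against WT mice. The log2 fold changes against WT mice below are therefore also given without the library labelled WT replicate 1, while counts of genes and separations of groups rest on both WT libraries. In those fits only WT replicate 2, with the female pattern, is left as WT. There, UNC0642-treated Tau against WT mice also compares libraries of male pattern with a library of female pattern. Between UNC0642-treated and untreated Tau mice, Prnp differed by 0.10 (interval from -0.38 to 0.58).

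Genes whose levels followed Prnp most closely over the 6 libraries, by the root mean square of the difference in centred log2 CPM, were Rnd3 (0.12), Rps15a-ps7 (0.13) and Gm2962 (0.13), against a median of 0.33 over 10200 genes. Mapt was at rank 27, with 0.18. Rnd3 ranged from 13.3 CPM in WT replicate 2 to 27.6 CPM in the library labelled WT replicate 1. The gene Prn shares 6.19% of the exon bases of Prnp on the same strand. The prion-like gene Prnd had no count in any library.

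Per kilobase of merged exon, mean levels over the 6 libraries were in the order Prnp (625 CPM per kb), Apoe (420), Clu (145), App (98.5), Sorl1 (71.4), Bin1 (41.4), Bace1 (14.8), Picalm (13.2) and Psen2 (3.01). The ranges of the neighbours Prnp and Apoe overlapped because of WT replicate 2, as did those of Bace1 and Picalm, and the other neighbours in this order did not overlap. On the length of each gene's principal transcript, a measure added after the data were seen, App moved above Clu (403 against 276 CPM per kb), Bin1 above Sorl1 (81.5 against 75.4) and Picalm above Bace1 (25.2 against 15.5).

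**Figure D2:**
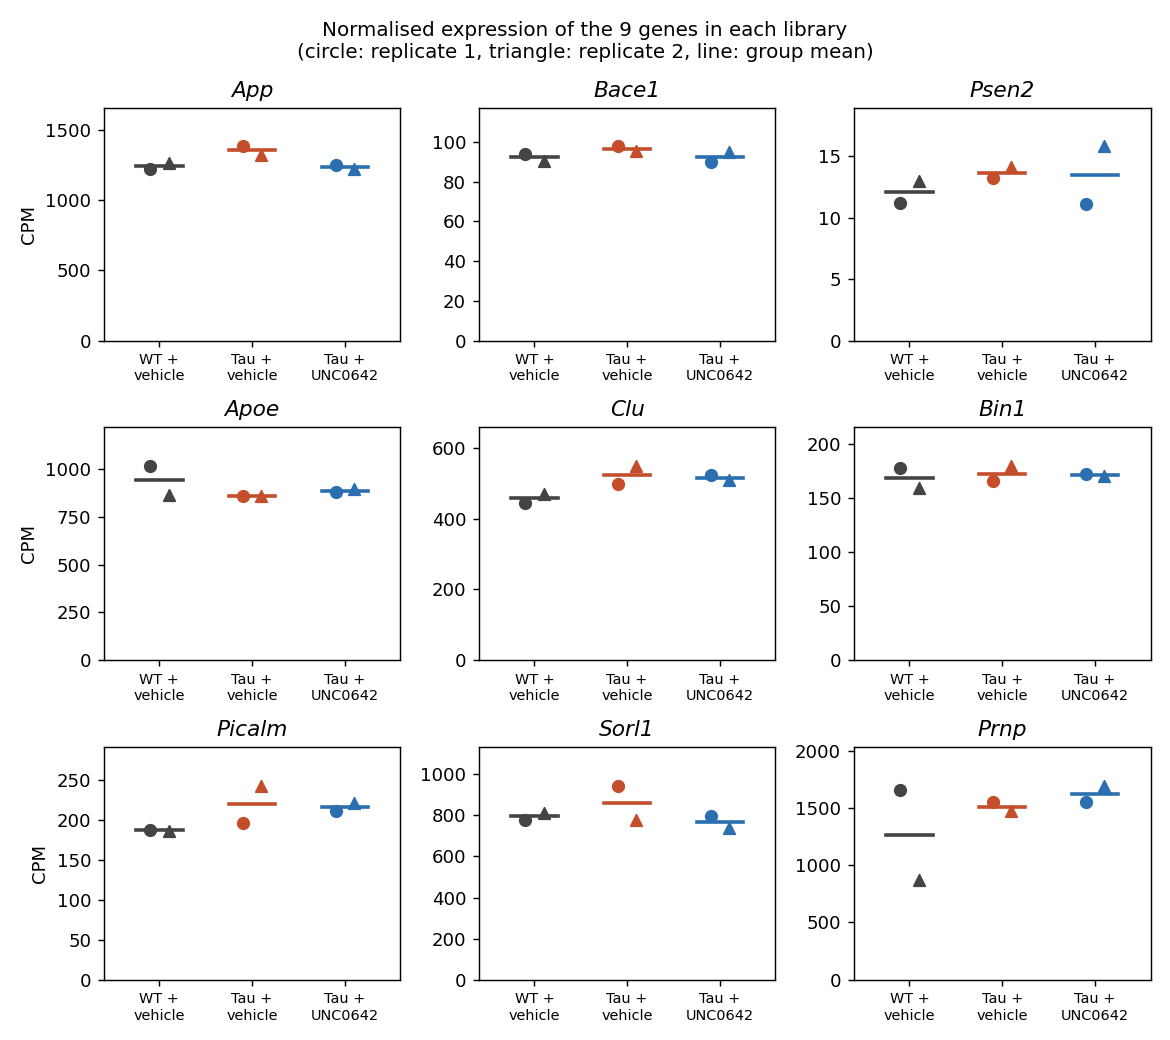
Level of each of the 9 genes in each library, in CPM on an axis from 0, by group (circle, replicate 1; triangle, replicate 2; line, mean of the group). The 2 WT points of Prnp (1652 and 872.9 CPM) lie farthest apart, and the points of App (1225 to 1385 CPM) lie close together.

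Across the 3 comparisons, no gene of the 9 passed the threshold of the study, an unadjusted p under 0.05 with a fold change of at least 1.2, in edgeR's quasi-likelihood test. In Tau against WT mice 0 of 9 were called, where 9.81% of all tested genes were (3.72% higher and 6.10% lower). In UNC0642-treated against untreated Tau mice 0 of 9 were called, where 7.69% of all genes were (3.73% higher and 3.95% lower). In UNC0642-treated Tau against WT mice 0 of 9 were called, where 9.47% of all genes were (3.77% higher and 5.69% lower). At an unadjusted p under 0.05 with no fold limit, 2 of 9 passed in the first comparison (Clu and Picalm; 12.4% of all genes), 0 in the second (8.86%) and 1 in the third (Clu; 12.1%). At an adjusted p under 0.05, 0 of 9 passed in each, where 0.157%, 0.0196% and 0.216% of all genes did. Tests by limma-voom, by DESeq2 and by the likelihood ratio in edgeR also called 0 of 9 in each. Median log2 fold changes of the 9 genes were 0.12, -0.020 and 0.026, beside -0.00011, -0.0023 and -0.012 over all genes. The first 2 comparisons share the Tau + vehicle libraries, and each pair of comparisons shares a group.

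**Figure D3:**
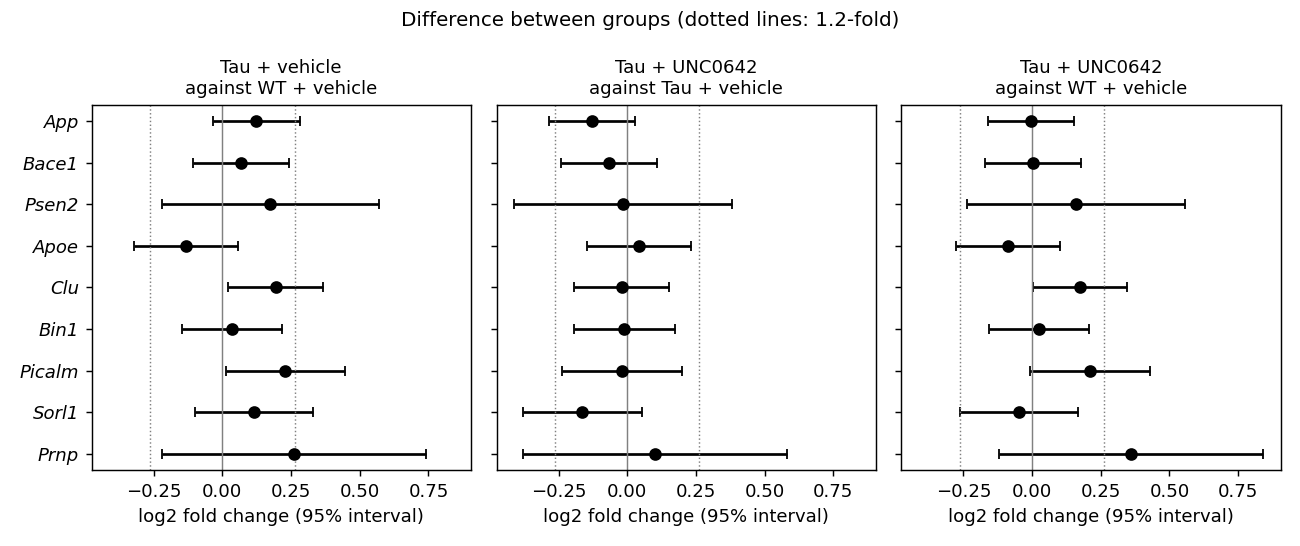
Log2 fold change of each of the 9 genes in the 3 comparisons, with 95% intervals from the edgeR fit of all 6 libraries. Intervals of Clu and Picalm lie just above 0 in Tau against WT mice, and the interval of Prnp is the widest in every comparison, from -0.22 to 0.74 in that one.

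Among the precursor and its secretases, App was the most abundant. App (chr16:84949685-85173766 on GRCm38, minus strand) stood at 1225 and 1264 CPM in WT, 1385 and 1327 CPM in Tau + vehicle and 1255 and 1227 CPM in Tau + UNC0642. Both Tau + vehicle libraries were above all 4 others, whose levels interleaved. The group means were 1244 ± 27.5, 1356 ± 41.5 and 1241 ± 20.1 CPM (SD, n = 2). The log2 fold change was 0.12 in Tau against WT mice (interval from -0.03 to 0.28, adjusted p = 0.502, edgeR) and -0.13 in UNC0642-treated against untreated Tau mice (interval from -0.29 to 0.03, adjusted p = 0.635). UNC0642-treated Tau and WT mice differed by -0.0037, with an interval from -0.16 to 0.15. Without the library labelled WT replicate 1, values against WT mice were 0.098 in untreated and -0.028 in UNC0642-treated Tau mice.

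Bace1, the beta-secretase of the amyloid pathway in neurons, stood at 94.0 and 90.4 CPM in WT, 97.7 and 95.6 CPM in Tau + vehicle and 89.9 and 94.9 CPM in Tau + UNC0642. Tau + vehicle libraries lay above all others, but by little: the whole range over 6 libraries was 0.12 on the log2 scale, and 97.4% of genes of at least 10 CPM had a wider one. Its log2 fold changes were 0.07, -0.06 and 0.0035 in the 3 comparisons, none with an adjusted p under 0.756 by edgeR. The values against WT mice were 0.094 and 0.030 without the library labelled WT replicate 1. Exons of Bace1 overlap those of Rnf214 on the other strand over 15.4% of their bases, and the strand setting of the counting is not given in the sources used here.

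Psen2, a catalytic subunit of gamma-secretase, was the least abundant of the 9 genes, with 187 to 370 counts per library. It stood at 11.2 and 13.01 CPM in WT, 13.2 and 14.1 CPM in Tau + vehicle and 11.1 and 15.8 CPM in Tau + UNC0642. The 2 Tau + UNC0642 libraries were the lowest and the highest of all. Only 1.17% of genes differed more within that group. Its log2 fold change in Tau against WT mice was 0.17 with a standard error of 0.18, and 0.065 without the library labelled WT replicate 1. In UNC0642-treated Tau against WT mice these values were 0.16 and 0.054.

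Neither lipid carrier passed the threshold. Apoe (chr7:19696109-19699188, minus strand) stood at 1018 CPM in the library labelled WT replicate 1 and 868 CPM in WT replicate 2. It stood at 861 CPM in both Tau + vehicle libraries and at 879 and 896 CPM in Tau + UNC0642. The library labelled WT replicate 1 was high and the other 5 lay between 861 and 896 CPM. Its log2 fold change in Tau against WT mice was -0.13 (interval from -0.32 to 0.06, adjusted p = 0.553, edgeR). Without the library labelled WT replicate 1 it was -0.016, and without WT replicate 2 it was -0.24, which passed the unadjusted p but not the fold limit (adjusted p = 0.236). In UNC0642-treated Tau against WT mice it was -0.088, and 0.029 without the library labelled WT replicate 1.

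Clu (chr14:65968483-65981547, plus strand) stood at 443.6 and 470.8 CPM in WT, 497.6 and 548.5 CPM in Tau + vehicle and 521.8 and 509.6 CPM in Tau + UNC0642. All 4 Tau libraries were above both WT libraries, and the treated and untreated Tau libraries overlapped. Means were 457.2 ± 19.2 CPM in WT, 523.1 ± 36.0 CPM in Tau + vehicle and 515.7 ± 8.68 CPM in Tau + UNC0642 (SD, n = 2). The log2 fold change was 0.19 in Tau against WT mice (interval from 0.02 to 0.37, adjusted p = 0.366) and 0.17 in UNC0642-treated Tau against WT mice (adjusted p = 0.408) by edgeR, comparisons that share the WT libraries. Both fold changes, 1.14 and 1.13, were under the fold limit. Without the library labelled WT replicate 1, they were 0.15 and 0.13, and without Tau replicate 2 the first was 0.13.

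Of the endocytic genes, Picalm and Sorl1 varied mainly between the 2 Tau + vehicle libraries. Picalm (chr7:90130213-90213465, plus strand), a clathrin assembly protein, stood at 186.9 and 186.2 CPM in WT, 195.5 and 242.5 CPM in Tau + vehicle and 211.4 and 220.2 CPM in Tau + UNC0642. All 4 Tau libraries were above both WT libraries, with Tau replicate 1 close to WT and Tau replicate 2 the highest. Its log2 fold change in Tau against WT mice was 0.23 (interval from 0.01 to 0.45, adjusted p = 0.390, edgeR) and its fold change of 1.17 was under the limit. Without Tau replicate 1 it was 0.38, which passed the threshold (adjusted p = 0.166), and without Tau replicate 2 it was 0.071. Tau replicate 2 was also the library with the most oligodendrocyte and striatal markers, and their part in the level of Picalm was not tested. In UNC0642-treated Tau against WT mice Picalm differed by 0.21 (interval from -0.0079 to 0.43). Both values against WT mice, 0.23 and 0.21, were the same to 2 decimals without the library labelled WT replicate 1.

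Sorl1 (chr9:41964720-42124297, minus strand), a receptor that returns App from endosomes, stood at 776.8 and 812.8 CPM in WT, 944.8 and 775.5 CPM in Tau + vehicle and 797.2 and 739.6 CPM in Tau + UNC0642. Tau replicate 1 was high and the other 5 libraries overlapped. Its log2 fold change was 0.11 in Tau against WT mice (0.079 without the library labelled WT replicate 1) and -0.16 in UNC0642-treated against untreated Tau mice (interval from -0.38 to 0.05, adjusted p = 0.658, edgeR). Without Tau replicate 2 the latter was -0.30, which passed the threshold (adjusted p = 0.306), and without Tau replicate 1 it was -0.014. The value in UNC0642-treated Tau against WT mice was -0.049, and -0.083 without the library labelled WT replicate 1.

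Bin1, a membrane-bending adaptor that is also abundant in oligodendrocytes, stood at 177.1 and 159.0 CPM in WT, 165.4 and 179.3 CPM in Tau + vehicle and 172.3 and 169.9 CPM in Tau + UNC0642. The 3 groups overlapped, and its log2 fold changes of 0.04, -0.010 and 0.026 had intervals within 0.22 of 0 on either side. Without the library labelled WT replicate 1 it differed from WT by 0.11 in untreated and 0.10 in UNC0642-treated Tau mice. Of its exon bases, 6.22% lie in exons of A830052D11Rik as well.

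Counted by separation of the groups alone, both Tau + vehicle libraries lay above both WT libraries for 5 of the 9 genes (App, Bace1, Psen2, Clu and Picalm) and below them for 1 (Apoe). In that comparison the libraries did not overlap for 43.2% of all tested genes, which were higher in 21.9% and lower in 21.4%. The UNC0642-treated libraries lay above the untreated Tau libraries for 1 gene (Apoe; 20.4% of all genes) and below them for 2 (App and Bace1; 20.9%), 3 of 9 in all beside 41.3% of all genes. They lay above both WT libraries for 2 genes (Clu and Picalm; 22.1%) and below them for 0 (22.3%), 2 of 9 in all beside 44.4% of all genes.

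**Figure D4:**
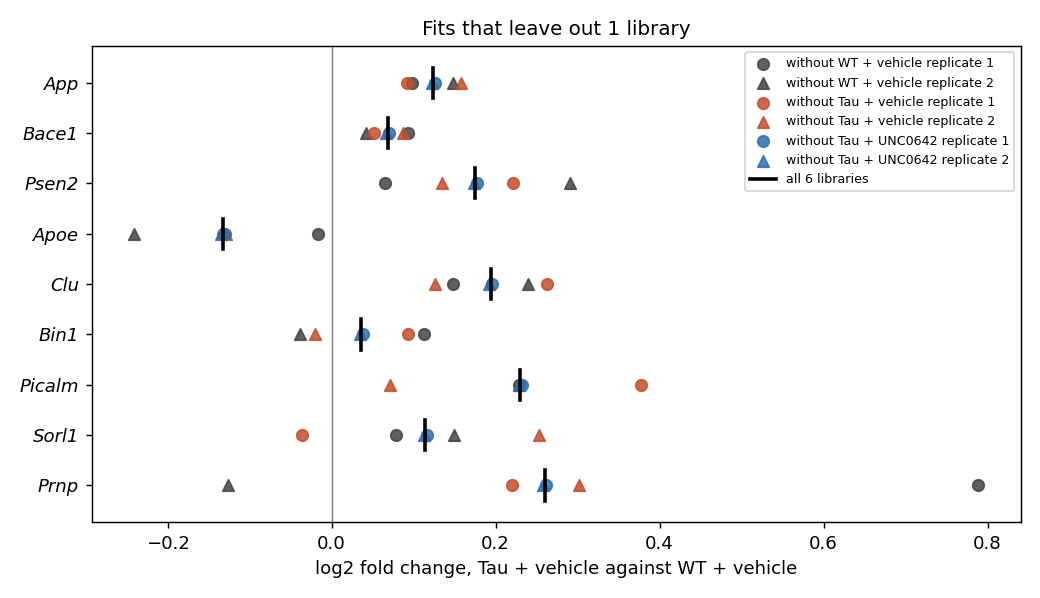
Log2 fold change of each of the 9 genes in Tau + vehicle against WT + vehicle, with all 6 libraries (vertical bar) and with each library left out in turn (points). Prnp moves from -0.13 without WT replicate 2 to 0.79 without the library labelled WT replicate 1, and Picalm from 0.071 to 0.38 with the Tau + vehicle library left out.

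The wider amyloid and risk gene list held 65 genes, of which 62 were tested, the 9 above included. In Tau against WT mice 1 was called higher and 1 lower, and 60 did not pass, beside 9.81% of all genes called. That count was 7 without Tau replicate 1 and 5 without WT replicate 2. Ece1, an enzyme that degrades amyloid-beta, stood at 46.6 and 44.5 CPM in WT and at 55.1 and 55.4 CPM in Tau + vehicle, and was called higher with a log2 fold change of 0.28 (adjusted p = 0.302, edgeR). In Tau + UNC0642 it was at 44.1 and 48.0 CPM. The call was lost without WT replicate 2, at 0.25, which was under the fold limit, and the value was 0.31 without the library labelled WT replicate 1. Cd2ap, an adaptor of endocytosis, was called lower with -0.31 (adjusted p = 0.371), from 33.5 and 29.8 CPM in WT to 23.0 and 28.3 CPM in Tau + vehicle, and lost the call without the library labelled WT replicate 1 (-0.23) or without Tau replicate 1 (-0.16). The median over the list was 0.07, beside -0.00011 over all genes.

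In UNC0642-treated against untreated Tau mice, 1 gene of the list was called higher and 3 lower, beside 7.69% of all genes called. In UNC0642-treated Tau against WT mice 1 was called higher and 3 lower, beside 9.47%. The first count, 4 of 62, was 7 without Tau replicate 2, and the second was 2 without either UNC0642-treated library. Medians over the list were -0.05 and -0.02. None of these calls passed an adjusted p under 0.05 with all 6 libraries. Bace2, a homologue of Bace1 that is much less abundant in brain, stood at 7.06 and 5.90 CPM in WT, 5.22 and 5.15 CPM in Tau + vehicle and 2.78 and 2.65 CPM in Tau + UNC0642, from 47 to 179 counts per library. The 2 UNC0642-treated libraries were the lowest, and no 2 groups overlapped. Its log2 fold change was -0.94 against untreated Tau mice (interval from -1.44 to -0.43, adjusted p = 0.327) and -1.25 against WT mice (interval from -1.75 to -0.76, adjusted p = 0.0659) by edgeR. When any 1 library was dropped, these values lay between -0.97 and -0.90 and between -1.38 and -1.12, and each passed the study's threshold. Against WT mice it was -1.12 (adjusted p = 0.157) without the library labelled WT replicate 1. It was -1.38 (adjusted p = 0.0426) without WT replicate 2, which leaves as WT only that library, of doubted genotype. The part of the sex pattern was not tested.

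**Figure D5:**
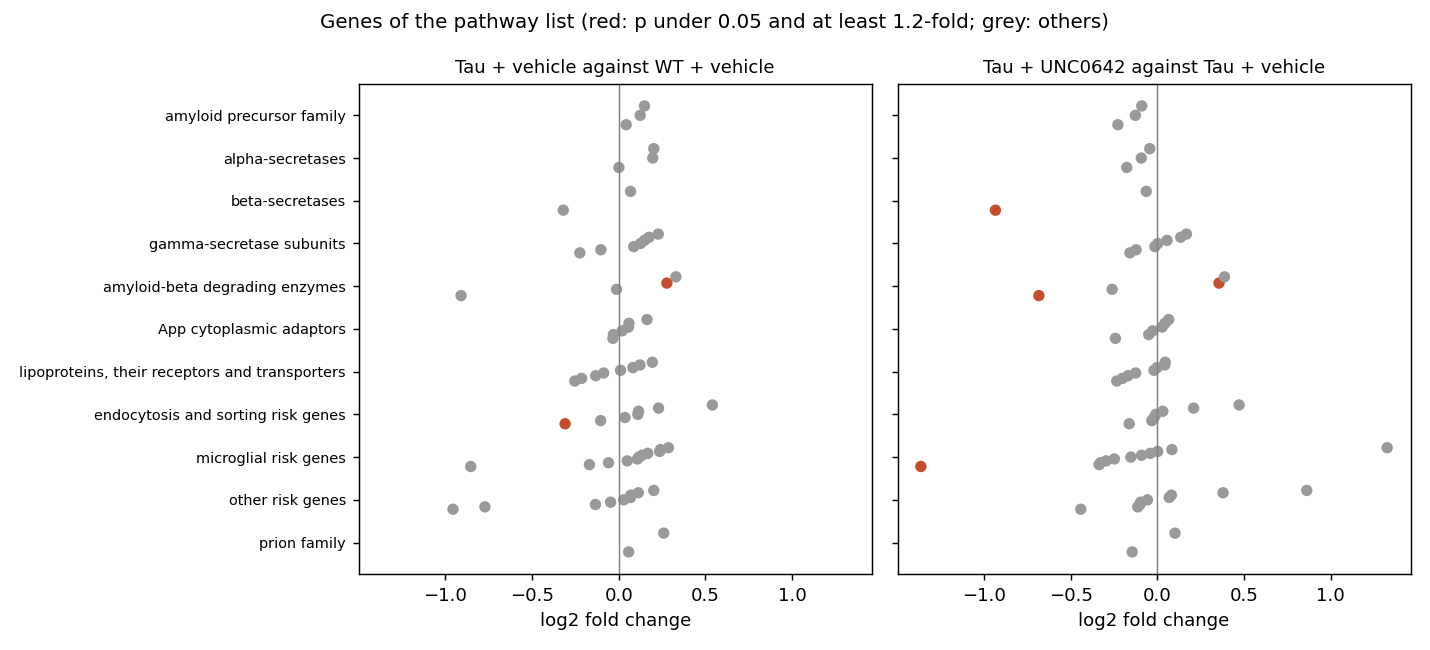
Log2 fold changes of the tested genes of the wider list by functional group, in Tau against WT mice and in UNC0642-treated against untreated Tau mice, with genes past the study's threshold in red. In the second panel Abi3 (-1.37), Bace2 (-0.94) and Mme (-0.68) lie on the left and Ide (0.35) on the right.

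Of 4 enzymes that degrade amyloid-beta, 1 was called higher and 1 lower in UNC0642-treated against untreated Tau mice, beside 7.69% of all genes called. By direction, 2 of the 4 lay above 0 and 2 below. Ece1 was among the latter, at -0.26, which was under the fold limit (adjusted p = 0.473, edgeR). Ide, the insulin-degrading enzyme, stood at 136 and 101 CPM in WT, 112 and 123 CPM in Tau + vehicle and 151 and 149 CPM in Tau + UNC0642. The UNC0642-treated libraries were the highest, with the library labelled WT replicate 1 next. It was called higher against untreated Tau mice (0.35, adjusted p = 0.467, edgeR) and against WT mice (0.34, adjusted p = 0.313). The latter call was lost without WT replicate 2, at 0.14. Without the library labelled WT replicate 1 the value was 0.57, from libraries of male pattern against a WT library of female pattern. The call against untreated Tau mice was lost without Tau replicate 1, at 0.29, and both calls were lost without either UNC0642-treated library. Mme (neprilysin) was called lower against untreated Tau mice, with a log2 fold change of -0.68 (adjusted p = 0.461). It stood at 10.4 and 17 CPM in Tau + vehicle and 9.35 and 7.59 CPM in Tau + UNC0642, and the call was lost without Tau replicate 2 (-0.30) or UNC0642 replicate 2 (-0.54). Mme is also transcribed in striatum, and the part of the striatal markers of that library was not tested.

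Lrp1, a receptor for Apoe, was called lower in UNC0642-treated Tau against WT mice, with -0.32 (adjusted p = 0.362, edgeR). It stood at 543.5 and 667.8 CPM in WT and 505.9 and 463.2 CPM in Tau + UNC0642, and the call was lost without WT replicate 2 (-0.17), UNC0642 replicate 1 (-0.39) or UNC0642 replicate 2 (-0.26). It was -0.47 without the library labelled WT replicate 1. Abi3, a microglial risk gene, was called lower in both comparisons with UNC0642 (-1.37 and -1.42) on 5 and 6 counts in the treated libraries against 11 to 23 in the others. The first of these calls was lost without any 1 library, and both by the DESeq2 Wald test. Against WT mice the value was -1.45 without the library labelled WT replicate 1, and not called. Aplp1, a relative of App, stood at 601.5 and 546.1 CPM in Tau + vehicle and at 503.7 and 476.0 CPM in Tau + UNC0642, a log2 fold change of -0.23 that was under the fold limit (adjusted p = 0.461).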

How the data were processed

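Libraries of PFC RNA were strand-specific, made after ribosomal RNA had been removed. The authors trimmed reads (Cutadapt), aligned them (TopHat2) and counted them per gene (featureCounts). Versions and the strand setting are not given in the sources used here. The submitters' processing notes name mm10 as the build. The authors deposited raw counts per gene, without normalization, for 6 libraries of 3 groups.

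Starting from these counts, filterByExpr of edgeR 4.0.16 (minimum count 10, minimum total 15, R 4.3.3) kept 20409 genes, and sizes were scaled by TMM. The 3 group means were estimated together from the 6 libraries by the quasi-likelihood model of edgeR, with 3 residual degrees of freedom and a biological coefficient of variation of 12.3%. P-values were adjusted by Benjamini-Hochberg over all 20409 genes, and a call needed, as in the study, an unadjusted p under 0.05 with a 1.2-fold change or more. Intervals are 95% intervals of the fit, and SDs come from 2 libraries. In the libraries WT replicate 2 and Tau replicate 2, 26 genes carried a date in place of a name and were joined by position. Coordinates come from a GRCm38 annotation, and the promoter from RefSeq, which listed 6 of the 9 genes. Counting of calls was tested on data simulated for Tau against WT mice, with 50 genes changed at each fold. Every gene was simulated with the same coefficient of variation of 12.3%, without differences in sex or cell types, and only genes above 10 CPM were changed. Of those changed 1.2-fold 36% were called, of those changed 1.5-fold 94% and of those changed 2-fold 100%. A change of 1.2-fold lies at the fold limit itself. These shares do not carry over to genes of wider spread, such as Prnp, or of lower level, such as Bace2 and Abi3.

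The 9 genes and all lists were chosen with earlier results of these data known. The text names the 9 genes, the listed genes that were called, Mapt, and the 3 genes closest to Prnp. Aplp1 and the genes set beside Prnp by their gap in WT replicate 2 were named after their values were seen. Alternatives were DESeq2 1.42.0 size factors or library size alone, filtering by 10 counts in every library or not at all, tests by limma-voom (limma 3.58.1), by DESeq2 (Wald) and by the likelihood ratio in edgeR, fits of the 4 compared libraries, a replicate block, other thresholds and leaving out each library. Figures were drawn with matplotlib 3.10.9.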

Additional observations from a re-analysis of the deposited data

How the results depend on the processing

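Over all other settings tried for the log2 fold changes of the 9 genes, 369 values kept their direction and their side of the threshold, 5 passed it newly and 31 turned direction, of which 0 were called. The largest value that turned, Prnp aside, was 0.16. With library size alone, Bace1 was -0.0015 and Bin1 -0.034 in Tau against WT mice. In UNC0642-treated against untreated Tau mice it gave Psen2 0.016, Clu 0.0092, Bin1 0.020, Picalm 0.0092 and Mapt 0.010, and in UNC0642-treated Tau against WT mice Bace1 -0.036 and Bin1 -0.014. In the latter, App was 0.0014 with DESeq2 size factors and 0.0014 by the DESeq2 Wald test, Bace1 was -0.0099 with at least 10 counts in every library, and Prnp passed the threshold at 0.36 with no filter. The cause was not tested.

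With each library left out in turn, values in Tau against WT mice ranged from -0.039 to 0.11 for Bin1, from 0.071 to 0.38 for Picalm, from -0.036 to 0.25 for Sorl1 and from -0.13 to 0.79 for Prnp. In UNC0642-treated against untreated Tau mice they ranged from -0.30 to 0.21 for Psen2, from -0.089 to 0.048 for Clu, from -0.068 to 0.045 for Bin1, from -0.17 to 0.14 for Picalm, from -0.30 to -0.014 for Sorl1 and, chosen after seeing the data, from -0.075 to 0.030 for Mapt. In UNC0642-treated Tau against WT mice they ranged from -0.028 to 0.019 for App, from -0.20 to 0.029 for Apoe, from -0.038 to 0.043 for Bace1, from -0.13 to 0.39 for Psen2, from -0.050 to 0.10 for Bin1, from -0.10 to 0.0028 for Sorl1 and from -0.027 to 0.89 for Prnp. With 1 library left in a group, that library was assumed to vary like the other groups.

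The number of the 9 genes called was 0 to 1 in each comparison with a library left out, 1 with no filter in UNC0642-treated Tau against WT mice, and 2, 0 and 1 with no fold limit. Of the wider list, 2, 4 and 4 genes were called in Tau against WT, UNC0642-treated against untreated Tau, and UNC0642-treated Tau against WT mice. A fold limit of 1.5 gave 0 in the first of these and 2 in the last. No fold limit gave 8 in the first and 7 in UNC0642-treated against untreated Tau mice, and an adjusted p under 0.05 gave 0 in each by edgeR. With a library left out these counts were 2 to 7, 3 to 7 and 2 to 4, reaching 5 without WT replicate 2 and 7 without Tau replicate 1 in the first, 7 without Tau replicate 2 in UNC0642-treated against untreated Tau mice, and 2 without either UNC0642-treated library in the last.

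Same-numbered libraries did not deviate together (correlations of deviations -0.058, -0.055 and -0.035), so the numbers were not taken as pairs. A replicate block gave Prnp 0.30 in Tau against WT mice, changed no call on the 9 genes, ended the call on Abi3 in UNC0642-treated against untreated Tau mice (-1.34), and left 1792, 1404 and 1755 genes called in the 3 comparisons. With 2 libraries a group, a p that misses the threshold leaves changes within the printed intervals undetected. Depth limits genes of few counts, such as Abi3 and Bace2.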
